A study of Homo sapiens with 4 samples.

Results

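G4 helicases and G4-binding proteins unwind or bind guanine quadruplexes (G4), and the transcripts of 37 named genes of this kind were followed in HepG2 cells treated with the G4 ligand pyridostatin (PDS). Their rows were found by symbol, through the Ensembl identifier that GENCODE release 44 pairs with each symbol. The symbols were chosen with earlier results of these data known. Of the 37 symbols, 36 had a row among the 61906 gene identifiers of the expression table, and LARK had none. The 36 genes fall into 10 DNA helicases, the ATRX and DAXX pair, 7 RNA helicases, 11 factors that bind guanine-rich DNA and 6 RNA-binding factors.

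HepG2 is an established human hepatocellular carcinoma line, labelled as wild type in both groups. PDS-treated cells received 20 µM PDS for 24 h, and mock-treated cells received no PDS. Each group held 2 libraries of poly(A)-enriched RNA. The series calls them biological replicates without saying whether they came from separate cultures, so each p-value reflects library-to-library spread only, and that spread may be technical.

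A G4 is a stack of guanine tetrads that forms where several runs of guanines lie close together on a DNA or RNA strand. Helicases such as BLM, PIF1 and DHX36 unfold these structures ahead of replication forks, at telomeres or in mRNA, and zinc-finger proteins such as SP1 and MAZ bind the guanine-rich promoter sequences in which they often form. PDS stacks on the tetrads and stabilises the fold, so the transcripts of the proteins that act on G4 were compared between cells with and without it.

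The PDS libraries held 15573166 and 19647907 reads that could be recovered from the TPM values (a length-corrected share of each library), against 39217670 and 30408397 in the mock libraries. Transcripts of the mitochondrial genome took 36.5% and 36.4% of all TPM in the PDS libraries, against 15.3% and 14.5% in the mock libraries. Because TPM is a share, each library was scaled to its median gene, by factors of 0.806 and 0.793 for PDS and 1.23 and 1.27 for mock. All levels below are scaled TPM unless the deposited TPM is named, and all log2 fold changes are PDS over mock on log2(scaled TPM + 1), which understates the change of low genes. The hepatocyte-like identity of the cells was checked on 8 markers, all of which were tested (6 higher and 2 lower), with ALB (albumin) at 14626 and 13680 deposited TPM in PDS cells and 15718 and 17679 in mock cells. Of 4 erythroid markers and 4 fibroblast markers, PDGFRB alone reached a mean of 1 TPM. In bulk RNA, fewer cells of a kind and less RNA per cell cannot be told apart.

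All 36 genes passed the filter of a mean of at least 1 TPM. After PDS 13 of them were lower and 1 was higher (limma, Benjamini-Hochberg adjusted p below 0.05 over 14686 genes), and 22 did not pass the test. Among all genes tested, 13.0% were lower and 16.2% were higher. The genes that fell were the DNA helicases PIF1, DDX11, BRIP1, WRN and RECQL4, the RNA helicases DDX21, DHX9, DDX17 and DDX3X, the DNA-binding factors SP1 and FUBP1, and the RNA-binding factors TAF15 and EWSR1. VEZF1, a zinc-finger factor, was the one that rose. The median log2 fold change was -0.24 over the 36 genes and -0.00 over all genes tested. Both PDS libraries lay below both mock libraries for 28 of the 36 genes, against 35.6% of all genes tested, and above both for 5, against 35.2%. HELQ, DAXX and MAZ overlapped between the groups.

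The calls rested on all 4 libraries. Without mock replicate 1 or mock replicate 2, 0 members and 0 genes of the whole table passed (limma), although 4621 and 4094 genes had an unadjusted p below 0.05. Without PDS replicate 1, 6 members were lower and 1 was higher, and without PDS replicate 2, 4 were lower and 2 were higher. PIF1, SP1, TAF15 and VEZF1 passed in both of these last fits. Scaling also mattered. By the deposited TPM, 34 of the 36 genes were lower and 0 higher, but 71.8% of all genes tested were lower too and 2.58% higher, since the median gene lay at a log2 fold change of -0.55 on that scale.

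**Figure D1:**
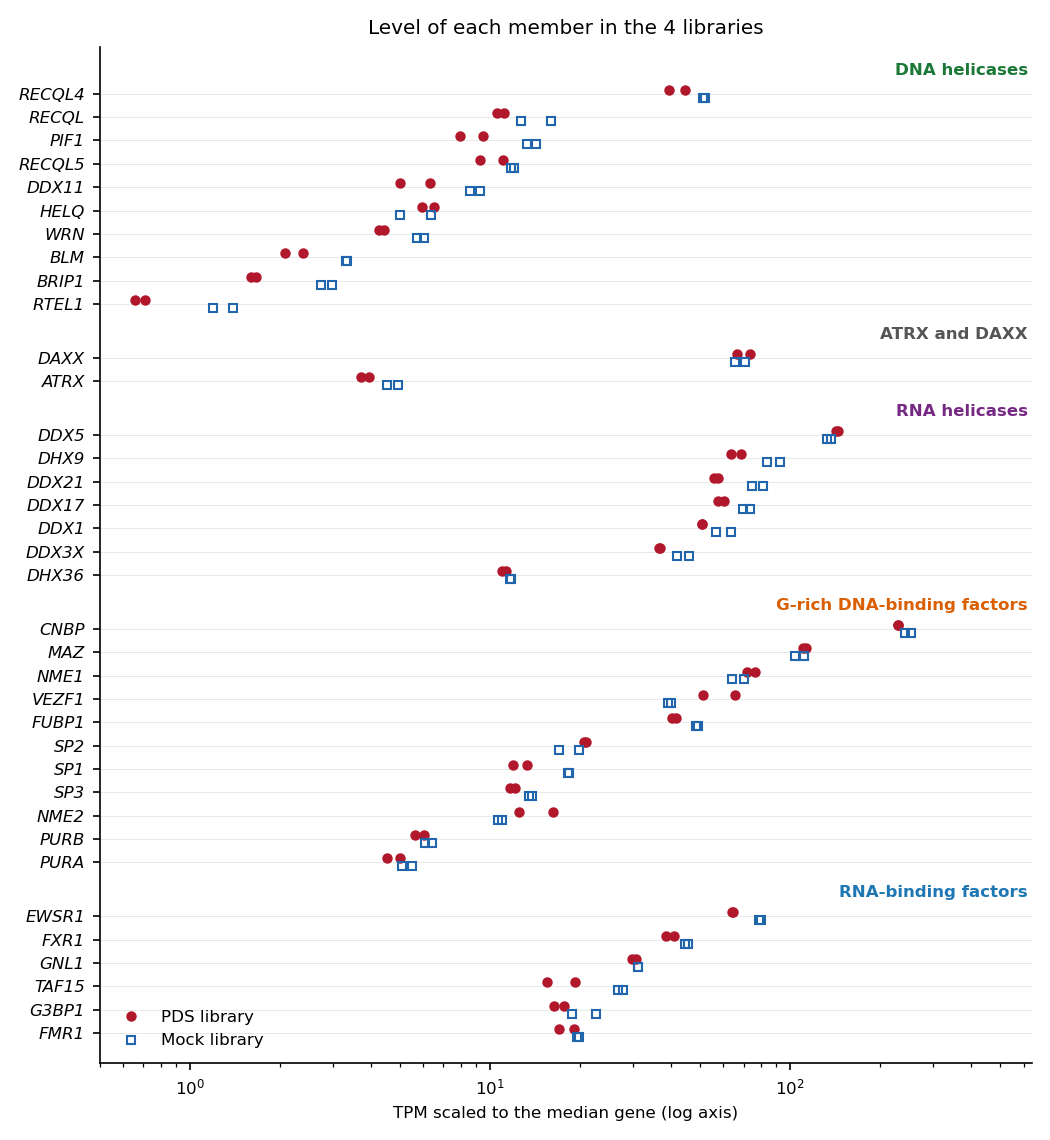
Scaled TPM (log axis) of the 36 genes in the 2 PDS libraries (filled circles) and the 2 mock libraries (open squares), grouped by class and ordered by mean level. The helicases sit mostly with both PDS libraries left of both mock libraries, while VEZF1 lies at 51.5 and 65.8 in PDS against 39.3 and 40.0 in mock.

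Guanine-rich promoter sequence is shown here for 5 of the genes, because the same class of sequence that PDS and these proteins bind occurs in their own promoters. A G4 motif was taken as 4 or more runs of at least 3 G with loops of 1 to 7 bases, on either strand, and a GC box, the element bound by SP1, as GGGCGG or CCGCCC. Windows from 250 bases before to 50 after each RefSeq start (GRCh38.p14) were found for 29 of the 36 genes. WRN, RECQL4, ATRX, DAXX, FUBP1, PURA and TAF15 were not matched. A G4 motif was present for 10 of the 29 (34.5%), against 41.3% of 9129 protein-coding genes tested and 27.9% of all 27305 genes with such a window. The GC box was present for 21 of the 29 (72.4%), against 77.7% and 48.3% of the same 2 sets. GC boxes may overlap a G4 motif. The motifs below are written 5′ to 3′ on the strand that carries the guanine runs, with the runs in capitals.
VEZF1, chr17:57988410-57988462, template strand, -208 to -156 from the start: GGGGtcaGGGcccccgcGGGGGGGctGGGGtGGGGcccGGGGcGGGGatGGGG
SP1, chr12:53380529-53380547, template strand, -115 to -97: GGGGcGGGcaGGGGGcGGG
MAZ, chr16:29806426-29806454, template strand, -103 to -75: GGGGccGGGGccGGGGGcGGGGGcccGGG
DHX9, chr1:182839185-182839208, template strand, -162 to -139: GGGagatGGGctgagccGGGcGGG
DDX5, chr17:64506015-64506043, coding strand, -106 to -78: GGGtGGGGGGatGGGaGGGcGGGtcaGGG

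The VEZF1 and DHX9 motifs lie upstream of the span that GENCODE 44 gives the gene. Those of SP1, MAZ and DDX5 lie within it, because another transcript of the gene begins further upstream. These 5 genes did not share a direction, with log2 fold changes of 0.54 for VEZF1, -0.50 for SP1, 0.05 for MAZ, -0.41 for DHX9 and 0.09 for DDX5. The other 5 members with a motif, not printed, were BRIP1 at -0.55, RTEL1 at -0.45, SP3 at -0.19, FXR1 at -0.18 and NME2 at 0.37. The SP1 windows held 2 G4 motifs and up to 10 GC boxes, and the MAZ window held 3 and 7. Among the 9 lower members with a window, 3 had a G4 motif, and among the 19 that did not pass the test, 6 had one. Over the protein-coding genes tested, 39.9% of those lower and 41.1% of those that did not pass had one. The median log2 fold change of members was -0.19 with a motif and -0.24 without, and the same values over protein-coding genes were -0.01 and -0.04. A motif is sequence only and does not show that a G4 was folded there in HepG2 cells. The study grouped genes by G4 found in chromatin with an antibody (BG4 ChIP-seq), which was not used here, so these values do not bear on that grouping.

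Among the DNA helicases, 5 of 10 fell and 0 rose (limma), against 13.0% lower and 16.2% higher of all genes tested. The DNA helicases had a class median log2 fold change of -0.40. Their summed level was 96.9 and 88.3 scaled TPM in PDS libraries, against 119 and 121 in mock libraries. PIF1, a helicase that moves 5′ to 3′ and acts at telomeres and in mitochondria, had 9.50 and 7.93 scaled TPM in PDS cells, against 14.2 and 13.3 in mock cells (chr15:64815632-64825668, minus strand). Its PDS libraries lay below both mock libraries, at a log2 fold change of -0.61 ± 0.101 (SE, limma adjusted p = 0.0161). DDX11, an iron-sulfur helicase of sister chromatid cohesion, had 6.29 and 5.02 in PDS cells, against 9.29 and 8.57 in mock cells (chr12:31073860-31104799, plus strand). DDX11 fell by 0.58 on the log2 scale (SE 0.117, limma adjusted p = 0.0241). The human genome holds close copies of DDX11, and the annotated pseudogene DDX12B fell as well, with 7.72 and 7.42 deposited TPM in PDS cells, against 20.4 and 18.3 in mock cells (log2 fold change -0.65, limma adjusted p = 0.0104). How the counting shared reads between the copies is not given in the sources used here, so the value of DDX11 is uncertain.

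BRIP1, the helicase partner of BRCA1 also known as FANCJ, had 1.66 and 1.60 scaled TPM in PDS cells, against 2.73 and 2.98 in mock cells (chr17:61679139-61863559, minus strand). It fell by 0.55 on the log2 scale (SE 0.125, limma adjusted p = 0.0315). At this low level the added 1 weighs on the value. On the recovered reads, 163 and 192 in PDS libraries against 790 and 683 in mock libraries, limma-voom gave a log2 fold change of -0.81. RTEL1, a helicase that dismantles telomeric loops, was the least abundant member, with 28 and 37 reads in PDS libraries and 175 and 119 in mock libraries. It did not pass the main test (log2 fold change -0.45, limma adjusted p = 0.129), although its groups did not overlap. The added 1 weighs on this value too, and limma-voom on the recovered reads gave -0.91 (limma-voom adjusted p = 0.00491). The annotated readthrough gene RTEL1-TNFRSF6B shares 52.9% of the exon bases of RTEL1 on the same strand. Reads of both cannot be told apart, so the level and rank of RTEL1 are uncertain. The readthrough gene had 0.977 and 0.741 deposited TPM in PDS cells, against 2.91 and 2.35 in mock cells (log2 fold change -0.58, limma adjusted p = 0.0624).

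In the RecQ family, WRN, BLM and RECQL4 are named for or linked to inherited genome instability syndromes. All 5 RecQ members had log2 fold changes below 0, as did 7344 of the 14686 genes tested. Of the 5, 2 passed as lower, against 13.0% of all genes tested. WRN, a helicase with an added exonuclease domain, had 4.26 and 4.43 scaled TPM in PDS cells, against 6.04 and 5.73 in mock cells (log2 fold change -0.36 ± 0.0840 SE, limma adjusted p = 0.0327). RECQL4, which also takes part in replication initiation, was the most abundant DNA helicase here, with 44.6 and 39.6 in PDS cells, against 52.0 and 51.1 in mock cells. RECQL4 fell by 0.29 on the log2 scale (SE 0.0737, limma adjusted p = 0.0427). BLM, which dissolves crossed-over DNA together with topoisomerase, just missed the threshold at an adjusted p of 0.0506 (limma), with 2.39 and 2.07 in PDS cells and 3.35 and 3.31 in mock cells. The log2 fold change of BLM was -0.42, and limma-voom on the recovered reads gave -0.59 (limma-voom adjusted p = 0.00361). RECQL and RECQL5 had log2 fold changes of -0.37 and -0.21 and adjusted p of 0.0725 and 0.158 (limma). The exons of PYROXD1 on the other strand cover 41.5% of those of RECQL, and the strand setting of the counting is not given in the sources used here. HELQ, a repair helicase that moves 3′ to 5′, overlapped between the groups, with 5.93 and 6.51 in PDS cells and 5.00 and 6.36 in mock cells.

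Further genes of these pathways were read from lists, beside the 13.0% lower and 16.2% higher of all genes tested. Of 24 further DNA helicases, 23 were tested, 16 were lower and 0 were higher (limma), with a median log2 fold change of -0.37. MCM2, MCM4 and MCM6, subunits of the replicative helicase, and HLTF, a fork remodelling enzyme, changed most, at -0.90, -0.82, -0.72 and -0.65. Of 25 genes whose products work with the members, 11 were lower, 3 were higher and 11 did not pass, with a median of -0.25. BRCA1, the partner of BRIP1, had 2.76 and 2.07 deposited TPM in PDS cells, against 7.11 and 8.09 in mock cells (log2 fold change -0.82, limma adjusted p = 0.0150). TIMELESS, which travels with the replication fork and works with DDX11, changed by -0.76, FANCI by -0.55 and PALB2, which links BRCA1 to BRCA2, by -0.54. A list of 24 S phase genes moved alongside, with 13 lower, 0 higher and 11 that did not pass, a median of -0.36 and a summed level of 1254 and 1176 scaled TPM in PDS libraries, against 1448 and 1539 in mock libraries. UHRF1, PRIM1, CHAF1B and POLA1, which act in copying DNA and its chromatin, changed most, at -0.97, -0.74, -0.59 and -0.57. The part of S phase in the values of the DNA helicases was not tested.

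ATRX and DAXX, the chromatin remodeller and the histone chaperone that together place histone H3.3 at repeats and telomeres, did not pass the test. ATRX had 3.94 and 3.71 scaled TPM in PDS cells, against 4.94 and 4.53 in mock cells (log2 fold change -0.25, limma adjusted p = 0.112). DAXX had 66.8 and 73.3 in PDS cells and 65.5 and 70.7 in mock cells, and its groups overlapped. The H3.3 genes H3-3A and H3-3B were higher by scaled TPM, at log2 fold changes of 0.37 and 0.20 (limma adjusted p = 0.0213 and 0.0391), and came to -0.26 and -0.44 by the deposited TPM.

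**Figure D2:**
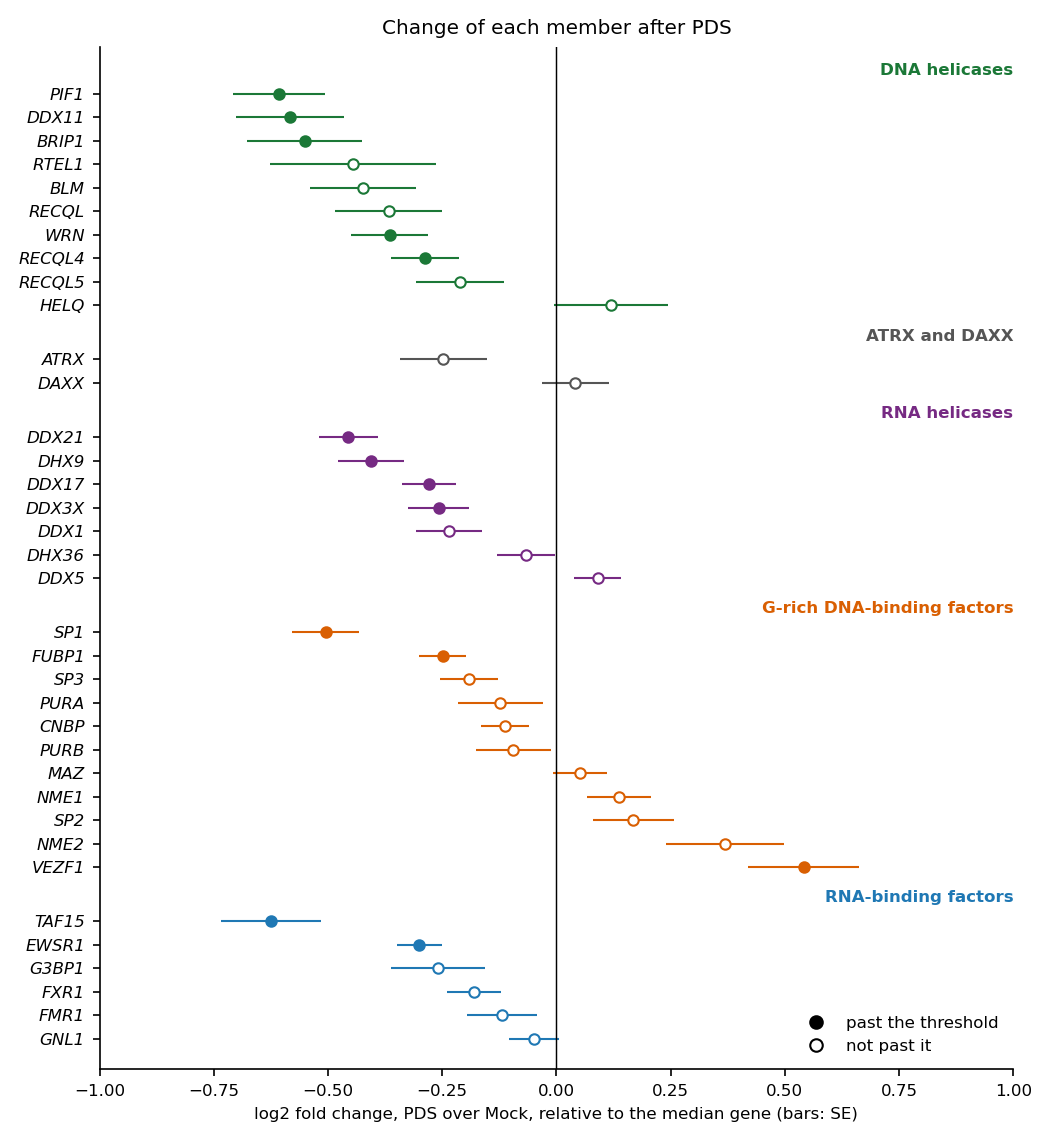
log2 fold change of each of the 36 genes, PDS over mock, relative to the median gene. Points are limma estimates from 2 libraries per group, bars are 1 SE, and filled points passed the adjusted p threshold of 0.05. PIF1 and TAF15 reach -0.61 and -0.62, and VEZF1 stands on the other side at 0.54.

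Among the RNA helicases, 4 of 7 fell and 0 rose (limma), against 13.0% lower and 16.2% higher of all genes tested. The class median was -0.26, and the summed level was 425 and 422 scaled TPM in PDS libraries, against 475 and 502 in mock libraries. DDX21, a nucleolar helicase that works in ribosomal RNA synthesis, had 55.7 and 57.3 scaled TPM in PDS cells, against 74.5 and 81.4 in mock cells (chr10:68956135-68985068, plus strand). Its log2 fold change was -0.46 ± 0.0646 (SE, limma adjusted p = 0.0115), and the groups were well apart. DHX9, also called RNA helicase A, had 68.7 and 63.8 in PDS cells, against 84.0 and 92.2 in mock cells (chr1:182839347-182887982, plus strand). DHX9 fell by 0.41 on the log2 scale (SE 0.0726, limma adjusted p = 0.0185), and its promoter motif is the one printed above. DDX3X, a helicase of translation initiation, had 36.8 and 36.5 in PDS cells, against 41.9 and 46.1 in mock cells (chrX:41333348-41364472, plus strand), and changed by -0.26 (limma adjusted p = 0.0433).

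DDX5 and DDX17 are close paralogs that act in splicing and microRNA processing, and they differed. DDX17 had 57.3 and 60.2 scaled TPM in PDS cells, against 73.5 and 69.5 in mock cells (chr22:38483438-38507660, minus strand), a log2 fold change of -0.28 (limma adjusted p = 0.0275). DDX5 was the most abundant helicase of either class and did not pass the test, with 145 and 143 in PDS cells and 133 and 137 in mock cells (log2 fold change 0.09, limma adjusted p = 0.236). Its direction depends on the scaling, since it was -0.06 under quantile normalization and -0.55 by the deposited TPM. DHX36, the helicase best known for resolving G4 in RNA and DNA, also did not pass, with 11.3 and 10.96 in PDS cells against 11.7 and 11.7 in mock cells (log2 fold change -0.07 ± 0.0631 SE, limma adjusted p = 0.460). DDX1, which acts in tRNA ligation and RNA repair, had a log2 fold change of -0.24 (limma adjusted p = 0.0658).

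Of 48 other DEAD and DEAH box genes, 42 were tested, 13 were lower and 4 were higher (limma), with a median of -0.16. Over all genes tested, 13.0% were lower and 16.2% were higher. DDX42, a helicase of the U2 snRNP, was higher, with 84.7 and 91.3 deposited TPM in PDS cells, against 66.2 and 65.5 in mock cells (log2 fold change 1.05, limma adjusted p = 0.00484). DDX41 was higher as well, at 0.62 relative to the median gene and -0.02 by the deposited TPM, while DDX39B, which takes part in splicing and mRNA export, was lower at -0.58, next to DDX12B.

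The 11 factors that bind guanine-rich DNA gave 2 that fell and 1 that rose (limma), with a class median of -0.09. These counts lie near the 13.0% lower and 16.2% higher of all genes tested. Their summed level, most of it from CNBP and MAZ, was 579 and 590.6 scaled TPM in PDS libraries and 578 and 590.5 in mock libraries. SP1, the founding member of the factors that bind the GC box, had 11.96 and 13.3 scaled TPM in PDS cells, against 18.2 and 18.4 in mock cells (chr12:53380176-53416446, plus strand). SP1 fell by 0.50 on the log2 scale (SE 0.0734, limma adjusted p = 0.0122). Its relatives SP3 and SP2 did not pass the test, with log2 fold changes of -0.19 and 0.17 (limma adjusted p = 0.0790 and 0.209). FUBP1, which binds the single-stranded far upstream element of MYC, had 40.5 and 41.6 in PDS cells, against 48.6 and 49.4 in mock cells (chr1:77944055-77979110, minus strand). FUBP1 changed by -0.25 ± 0.0524 (SE, limma adjusted p = 0.0267), with a narrow spread within each group.

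VEZF1, a zinc-finger factor that binds runs of G and is needed in vessel development in mice, had 51.5 and 65.8 scaled TPM in PDS cells, against 39.3 and 40.0 in mock cells (chr17:57971547-57988259, minus strand). The rise was 0.54 ± 0.121 on the log2 scale (SE, limma adjusted p = 0.0306), with the PDS libraries far apart from each other. By the deposited TPM the groups of VEZF1 overlapped, with 41.5 and 52.2 in PDS cells and 48.5 and 50.9 in mock cells, and the log2 fold change turned to -0.09. It was the single member whose deposited TPM overlapped between the groups. The other 35 lay lower in both PDS libraries, as did 82.1% of all genes tested. MAZ, a zinc-finger factor with a similar binding sequence, overlapped between the groups, with 110.4 and 113 scaled TPM in PDS cells and 104 and 112 in mock cells. The exons of lncRNAs on the other strand, MVP-DT above all, cover much of MAZ, and MVP-DT alone covers 43.7% of its exon bases.

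NME2, a nucleoside diphosphate kinase that binds the MYC promoter, had the highest estimate of all members after VEZF1, with 16.3 and 12.5 scaled TPM in PDS cells, against 10.7 and 11 in mock cells. It did not pass the test (log2 fold change 0.37, limma adjusted p = 0.0907). NME1, its neighbour on chromosome 17, had a log2 fold change of 0.14 (limma adjusted p = 0.202). The readthrough gene NME1-NME2 shares 18.7% of the exon bases of NME1 and 24.2% of those of NME2, so both values are uncertain. CNBP, a small zinc-finger protein that unfolds G4 in mRNA and DNA, was the most abundant member at 229 and 229.5 in PDS cells and 242 and 253 in mock cells (log2 fold change -0.11, limma adjusted p = 0.166). PURA and PURB, which bind purine-rich single strands, had log2 fold changes of -0.12 and -0.09 and did not pass.

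Of the 6 RNA-binding factors with a row, 2 fell and 0 rose (limma), against 13.0% lower and 16.2% higher of all genes tested. These factors had a class median of -0.22. Their summed level was 188 and 186 scaled TPM in PDS libraries, against 221 and 226 in mock libraries. TAF15, a FET family protein with arginine-glycine repeats that binds G4 in DNA and RNA, showed the lowest estimate of all members. It had 19.2 and 15.5 scaled TPM in PDS cells, against 27.8 and 26.6 in mock cells (chr17:35809482-35864615, plus strand), a log2 fold change of -0.62 ± 0.109 (SE, limma adjusted p = 0.0177). EWSR1, another FET protein, had 64.6 and 64.1 in PDS cells, against 79.0 and 79.9 in mock cells (chr22:29268009-29300525, plus strand). EWSR1 fell by 0.30 on the log2 scale (SE 0.0494, limma adjusted p = 0.0158), with little spread in either group. G3BP1, the stress granule scaffold, had a log2 fold change of -0.26 (limma adjusted p = 0.121). FMR1 and FXR1, translational regulators of the fragile X family, had -0.12 and -0.18, and the GTPase-like GNL1 had -0.05, and none of these passed. LARK is a synonym of RBM4 in RefSeq, and RBM4, which was not counted among the members, had 3.12 and 3.07 scaled TPM in PDS cells and 3.27 and 2.80 in mock cells (log2 fold change 0.02, limma adjusted p = 0.888).

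The 3 main classes can be set side by side only as descriptions, since members are not replicates and the differences between classes were not tested. The class medians were -0.40 for DNA helicases, -0.26 for RNA helicases and -0.09 for the factors that bind guanine-rich DNA. The classes were not matched in summed exon length, which is taken up below. With a trend on that length removed, 2 DNA helicases were lower and 0 higher (limma). The counts were 2 and 1 for RNA helicases and 1 and 1 for the guanine-rich factors, against 10.8% and 13.6% of all genes. The share of each class with both PDS libraries below both mock libraries was 9 of 10, 6 of 7 and 6 of 11, against 35.6% of all genes tested. Both PDS libraries lay above both mock libraries for 0, 1 and 4 genes of these classes, against 35.2% of all genes tested.

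A ratio of 2 members within a library does not depend on how the library was scaled, so 11 pairs of related members were compared in this way. With 2 libraries against 2, the smallest two-sided p of an exact permutation test is 0.333, and the ratios are therefore given as descriptions. The DDX5/DDX17 ratio was 2.53 and 2.37 in PDS cells, against 1.81 and 1.97 in mock cells. The DHX36/DHX9 ratio was also higher, at 0.164 and 0.172 in PDS cells against 0.139 and 0.126 in mock cells. The SP1/SP3 ratio was lower, at 1.03 and 1.10 in PDS cells against 1.34 and 1.33 in mock cells. The MAZ/VEZF1 ratio was lower, at 2.15 and 1.72 in PDS cells against 2.65 and 2.79 in mock cells. TAF15/EWSR1 was 0.298 and 0.242 in PDS cells against 0.352 and 0.333 in mock cells, and ATRX/DAXX was 0.0590 and 0.0506 in PDS cells against 0.0755 and 0.0641 in mock cells. No ratio was adjusted for summed exon length, taken up below, which is 22740 bases for ATRX and 3084 for DAXX. With a trend on that length removed, the log2 fold changes were -0.05 for ATRX and -0.03 for DAXX. Those of DDX5 and DDX17 were 0.215 and -0.146. NME1/NME2 was 4.68 and 5.73 in PDS cells against 6.59 and 5.82 in mock cells. Small differences also kept the groups apart for PURA/PURB, at 0.836 and 0.810 in PDS cells against 0.837 and 0.853 in mock cells. FMR1/FXR1 was 0.440 and 0.464 in PDS cells against 0.436 and 0.431 in mock cells. The BLM/WRN and RECQL/RECQL4 ratios overlapped between the groups, and the other 9 pairs did not. The share of other gene pairs without overlap was not computed. Among single genes tested, 35.6% had both PDS libraries below both mock libraries by scaled TPM, and 35.2% above, so the count of pairs is a description only.

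**Figure D3:**
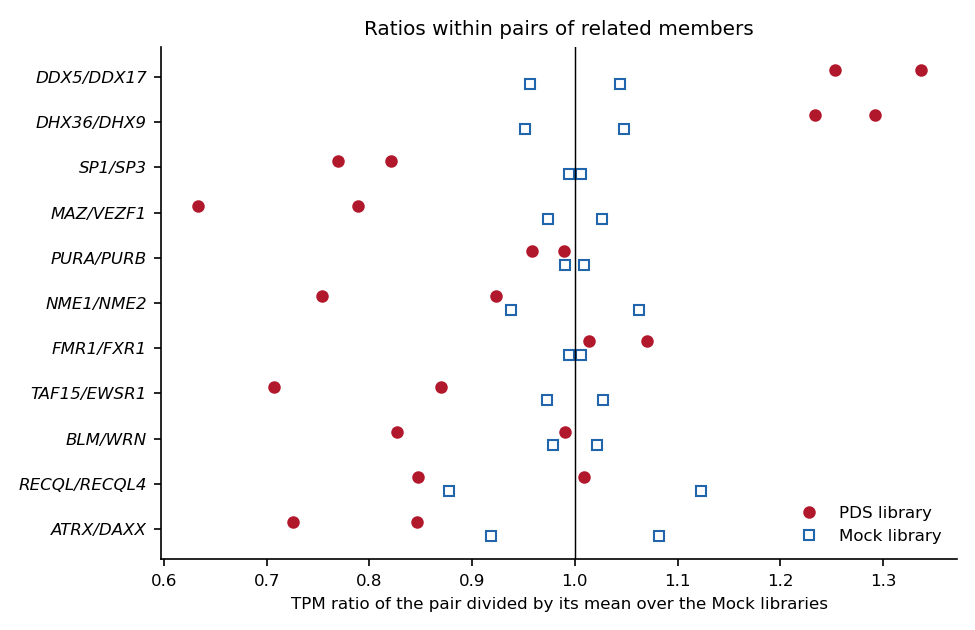
Ratio of the deposited TPM of 2 related members in each library, divided by the mean ratio over the mock libraries (linear axis). PDS libraries are filled circles and mock libraries open squares. DDX5/DDX17 and DHX36/DHX9 lie above both mock values in both PDS libraries, SP1/SP3, MAZ/VEZF1, TAF15/EWSR1, ATRX/DAXX and NME1/NME2 lie below, PURA/PURB and FMR1/FXR1 lie close to 1, and BLM/WRN and RECQL/RECQL4 overlap.

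The members have a large summed exon length, and this length moved with the change after PDS. It counts every annotated exon base of a gene and is not the length of a transcript. The median over the members was 8454 bases, against 5174 for the protein-coding genes tested. Across the 36 members, which share the same 4 libraries, the log2 fold change and the log2 exon length had a Pearson r of -0.47 (Spearman rho -0.35), and across 10630 protein-coding genes an r of -0.38 (rho -0.37). The share of protein-coding genes that were lower was 2.83% under 2 kb and 28.6% over 12 kb. The 8 members between 2 and 4 kb, among them DAXX, HELQ, MAZ, SP2 and both NME genes, included 0 that were lower, against 8.65% of protein-coding genes of that length. The 14 members between 8 and 12 kb included 6 that were lower, against 25.2% of protein-coding genes of that length. Over 12 kb 3 of 7 members were lower, against 28.6%.

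When a smooth trend on exon length was taken out of the values, a step chosen after seeing the data, 6 members were lower and 2 were higher (limma), against 10.8% and 13.6% of all genes. The members lower in that fit were PIF1, DDX11, DDX21, DHX9, SP1 and TAF15, at log2 fold changes of -0.60, -0.47, -0.33, -0.36, -0.40 and -0.46. VEZF1 was higher at 0.56, and DDX5 passed as higher at 0.22 (limma adjusted p = 0.0378). BRIP1, WRN, RECQL4, DDX17, DDX3X, FUBP1 and EWSR1 did not pass in it. RECQL4 kept its size there, at -0.29 (limma adjusted p = 0.0506), while DDX3X came to -0.08. What made genes of greater summed exon length lower in the PDS libraries was not tested.

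**Figure D4:**
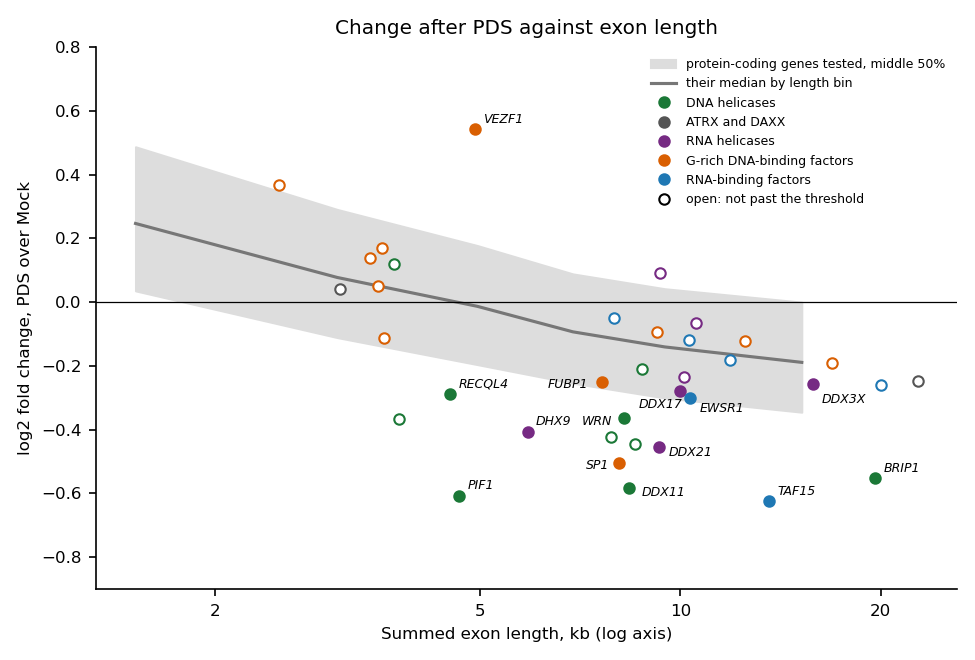
log2 fold change after PDS against summed exon length in kb (log axis) for the 36 members, coloured by class and filled where they passed the threshold. The grey line and band give the median and the middle 50% of protein-coding genes tested by length bin, falling to a median of -0.19 over 12 kb. DDX17, DDX3X, FUBP1 and EWSR1 lie within the middle 50% of their length bin, the other members that fell lie below it, as do the open points of RECQL, BLM, RTEL1 and, narrowly, CNBP, and VEZF1, NME2 and DDX5 lie above theirs.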

How the data were processed

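The deposited table holds TPM, an expression signal that the authors made from poly(A) RNA-seq reads of 2 PDS and 2 mock libraries. Per the labels and the study's methods, reads were aligned to GRCh38 with STAR (2.7.0) and assigned with featureCounts (2.0.3), and the authors tested genes with DESeq2 (1.36.0). The annotation release, strand setting and the formula behind TPM are unknown here. The authors' group means in the table were not used. Of 61908 gene rows, 2 repeated an identifier, and 2 further rows without one held column totals and were left out. Identifiers were matched to GENCODE release 44, 59984 (96.9%) of them with version. TPM times exon length gave whole read numbers within 0.05 for at least 99.89% of values up to 1000 reads, which served for limma-voom only. Reads of DDX3X did not come out whole, and FUBP1 was matched without version and had no recovered reads.

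TPM was divided by a median-of-ratios factor over the tested genes (mean TPM of 1 or more) with a value above 0 in all libraries, and log2(scaled TPM + 1) was tested with limma (3.58.1, R 4.3.3) with a variance trend, two-sided, at a Benjamini-Hochberg adjusted p of 0.05. The steps were tested on simulated data. Those data held no mitochondrial shift and no exon length trend, so they cannot bear on the scaling or on that trend. No block was fitted for the replicate number. Overlaps and sequences came from GENCODE 44 and RefSeq (GRCh38.p14), with Python 3.11.15. The members and gene lists were chosen with earlier results of these data known. Every member is named, and from each list of neighbouring genes up to 4 of the largest changes past the threshold, while cell type markers served as a check only. Alternatives were another scaling, pseudocount, filter, variance model or read-based fit, a replicate block, each library left out, and exon length or GC trends removed.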

Additional observations from a re-analysis of the deposited data

How the results depend on the processing

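Counts are of members unless all genes are named. By the deposited TPM 34 were lower and 0 higher (10538 and 379 of all genes), and under quantile normalization 17 and 1. With the factor over all genes above 0, which moved the median gene to -0.12, 17 were lower and 0 higher, and 1146 of all genes were higher. With no filter on low values 0 members and 0 genes passed in either direction (limma, 9054 genes at an unadjusted p below 0.05), and with a mean of at least 5 TPM 14 were lower and 2 higher. Without the variance trend 11 were lower and 0 higher, and limma-voom on the recovered reads gave 21 and 2. The replicate block gave 7 lower and 1 higher, and 1138 of all genes lower. The deviations of same-numbered libraries had r = -0.03, which cannot show whether those libraries shared a culture or a day. With the exon length trend removed 6 were lower and 2 higher, and with the GC trend removed too, 7 and 2. These last 2 settings and the factor over all genes were chosen after seeing the data. With 1 library left out, the members lower ranged from 0 to 6, the members higher from 0 to 2, all genes higher from 0 to 1500 and all genes lower from 0 to 912, with the lone library assumed to vary like the others.

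Some single log2 fold changes turned sign, and where the setting is not itself a new scaling or trend the cause was not tested. By the deposited TPM they were HELQ -0.43, DAXX -0.60, DDX5 -0.55, MAZ -0.59, NME1 -0.50, SP2 -0.45, NME2 -0.23, VEZF1 -0.093 and RBM4 -0.46. Under quantile normalization they were DAXX -0.076, DDX5 -0.058, MAZ -0.10 and RBM4 -0.012. With the factor over all genes above 0 they were HELQ -0.0064, DAXX -0.10, DDX5 -0.056, MAZ -0.094, NME1 -0.0080 and RBM4 -0.085. With the exon length trend removed they were DAXX -0.029, DHX36 0.071, PURA 0.033, PURB 0.030, FMR1 0.016 and GNL1 0.053, and with exon length and GC trends removed DAXX -0.043, MAZ -0.057, DHX36 0.093, SP3 0.0063, PURA 0.041, PURB 0.061, FMR1 0.036 and GNL1 0.054. With 1 library left out, DAXX ranged from -0.026 to 0.11, HELQ from -0.028 to 0.27 and RBM4 from -0.061 to 0.11. Depth limits RTEL1 most, which had 28 reads in its shallowest library.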

Other observations

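Beyond the named members, 23 other genes whose products bind G4 were tested, with a median log2 fold change of -0.20. After PDS 11 were lower and 1 was higher (limma), against 13.0% lower and 16.2% higher of all genes tested. DNMT1, the maintenance DNA methyltransferase, had 11.3 and 10.3 deposited TPM in PDS cells, against 31.1 and 32.6 in mock cells (log2 fold change -0.87, limma adjusted p = 0.00549). PARP1, a sensor of DNA breaks, changed by -0.52, the let-7 regulator LIN28B by -0.50 and the nucleolar protein NCL by -0.45.

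Among 18 tested paralogs of the binding factors, 1 was lower and 1 was higher (limma), with a median of 0.00. These counts stand beside 13.0% lower and 16.2% higher of all genes tested. FXR2, the paralog of FMR1 and FXR1, had 23.9 and 24.2 deposited TPM in PDS cells, against 27.4 and 27.0 in mock cells. It was higher relative to the median gene (log2 fold change 0.46, limma adjusted p = 0.0101) and lower by the deposited TPM (-0.17). KHSRP, the paralog of FUBP1, changed by -0.39 (limma adjusted p = 0.0159).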
